A study of Bos taurus with 16 samples.

Results

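NANOG and 9 other pluripotency factors (POU5F1, SOX2, KLF4, SALL4, PRDM14, ESRRB, TDGF1, LIN28A and STAT3) were followed in bovine blastocysts whose mothers had eaten different oilseeds. The members were the array probes that the platform's probe-to-gene table assigned to these symbols. All 10 genes were measured, by 14 of 43794 probes. STAT3 had 3 probes, PRDM14 and TDGF1 had 2 each, and the other members had 1 each. TDGF1 carries the symbol CRIPTO in the current RefSeq gene table, and the array's older symbol is kept here.

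The groups were blastocysts of cows fed flax (FLX, 8 cows, rich in α-linolenic acid), sunflower (SUN, 7 cows, rich in linoleic acid) or canola (CAN, 8 cows, rich in oleic acid), the last being the control. All were non-lactating Holstein cows that received rolled seed for at least 35 days, were superovulated with follicle-stimulating hormone and were inseminated with a pair of doses 12 h apart from a single sire. Embryos were flushed 7.5 days after insemination, blastocysts of a cow were pooled, and antisense RNA was labelled with Cy3 or Cy5. The 16 arrays formed 4 replicates of FLX against CAN and 4 of SUN against CAN, each hybridised once in each dye orientation. The labels do not tie cows to replicates, and the p-values below measure only the spread between these pools. The labels reuse CAN numbers 1 to 4 in both comparisons, so an FLX and a SUN replicate of the same number were taken to share a CAN pool.

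NANOG is a homeodomain transcription factor that, with POU5F1 and SOX2, keeps the epiblast, the founder tissue of the embryo proper, unspecialised. In a blastocyst these cells lie in the inner cell mass, beside the hypoblast that lines the cavity and inside the trophectoderm that later forms placenta. In cattle, POU5F1 is still found in the trophectoderm at the blastocyst stage. A whole blastocyst mixes all of these cells, so fewer cells of a type and less RNA per cell cannot be told apart.

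Every value is a log2 ratio of diet over CAN. A value of 0 is equality, and 1 is a doubling if the base of the logarithm is 2, as was assumed. Red over green (Cy5 over Cy3) is the likely direction of the ratio, although no label states it. With the opposite direction every sign given here turns, while the spreads and the correlations between genes stay the same. Spot intensities were not analysed here, so a probe's signal over background is unknown, and no level could show whether a member or a marker of the labelled tissue was present. Array medians lay between −0.0139 and 0.00947. SUN replicate 3 stood apart, correlating with the other SUN replicates at −0.266 to −0.244 over all probes, and SUN replicate 2 had the largest spread over probes (SD 0.371). The likeness of the list genes to NANOG is given without SUN replicate 2 as well, a check chosen after seeing the data.

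NANOG differed widely between replicate pools of the same diet. In FLX replicates 1 to 4 its log2 ratio against CAN was −2.19, 2.63, −1.11 and 1.82. In SUN replicates 1 to 4 it was 0.35, 5.34, −0.30 and 1.51. FLX thus held 2 positive and 2 negative pools, and SUN replicate 2 lay far above all others, at 40.4-fold over its CAN pool. FLX replicate 2 was 6.17-fold over CAN, and FLX replicate 1 was 4.57-fold below CAN. The FLX and SUN ranges overlapped.

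The array pairs with exchanged dyes gave NANOG the same sign each time, with readings closer together in FLX than in SUN. With the diet sample in Cy5 and then in Cy3, FLX replicate 1 read −2.29 and −2.09, FLX replicate 2 read 2.67 and 2.58, FLX replicate 3 read −1.21 and −1.02, and FLX replicate 4 read 1.86 and 1.79. The same readings were 0.60 and 0.10 in SUN replicate 1, 6.01 and 4.67 in SUN replicate 2, −0.19 and −0.41 in SUN replicate 3, and 1.70 and 1.32 in SUN replicate 4. The sign was the same in both orientations in 8 of 8 replicates. The paired readings parted most in SUN replicate 2, where each lay 0.670 from their mean. The SD of NANOG over the 8 replicates was 2.36, against an SD of 0.270 for a replicate mean as judged from its dye exchange, a ratio of 8.75. The replicates thus differed by more than the paired arrays of a replicate. From these ratios a diet pool and its CAN pool cannot be told apart as the side that varied.

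**Figure D1:**
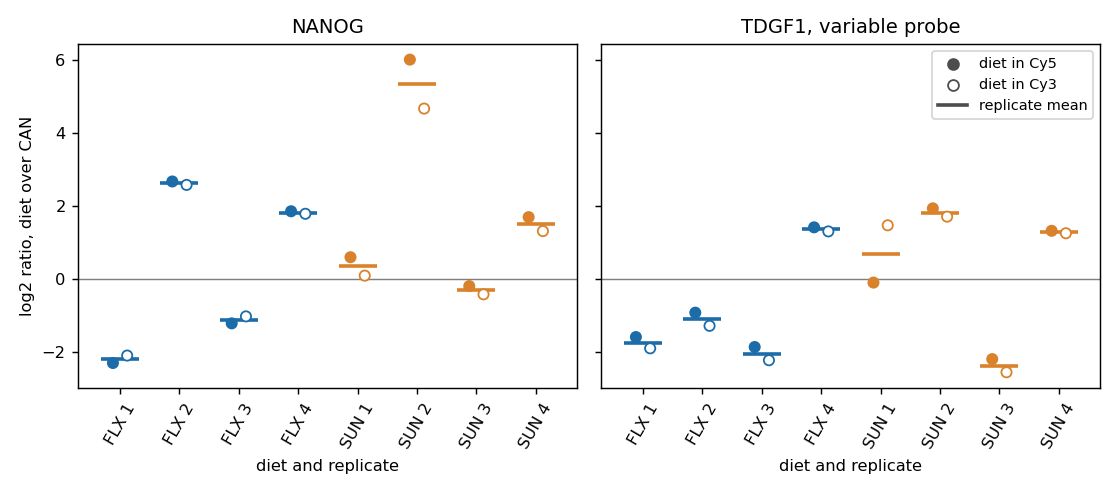
Log2 ratio of diet over CAN (vertical axis) of NANOG (left) and of the variable TDGF1 probe EMBV3_18825 (right) in FLX replicates 1 to 4 and SUN replicates 1 to 4 (horizontal axis). Filled points have the diet sample in Cy5, open points have it in Cy3, and bars are their mean. The orientations of NANOG have the same sign in every replicate while replicate means run from −2.19 to 5.34. The orientations part most in SUN replicate 2 for NANOG (6.01 and 4.67) and in SUN replicate 1 for TDGF1 (−0.09 and 1.47).

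Among all genes the NANOG spread was second only to that of 1 other gene among 15216. A typical gene had an SD of 0.152 over the 8 replicates (median), 95% of genes lay below 0.506, and 60 genes exceeded 1. TDGF1, a membrane-anchored co-receptor for NODAL, followed at 0.897 (rank 92), and KLF4, a zinc finger factor of the naive state known best from mouse, at 0.629 (rank 310). POU5F1, the POU-domain partner of SOX2, had an SD of 0.297. The remaining 6 members ran from 0.152 for SOX2 to 0.262 for LIN28A. Relative to NANOG, the spread of the other members was 6.43% (SOX2) to 37.9% (TDGF1) as large.

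**Figure D2:**
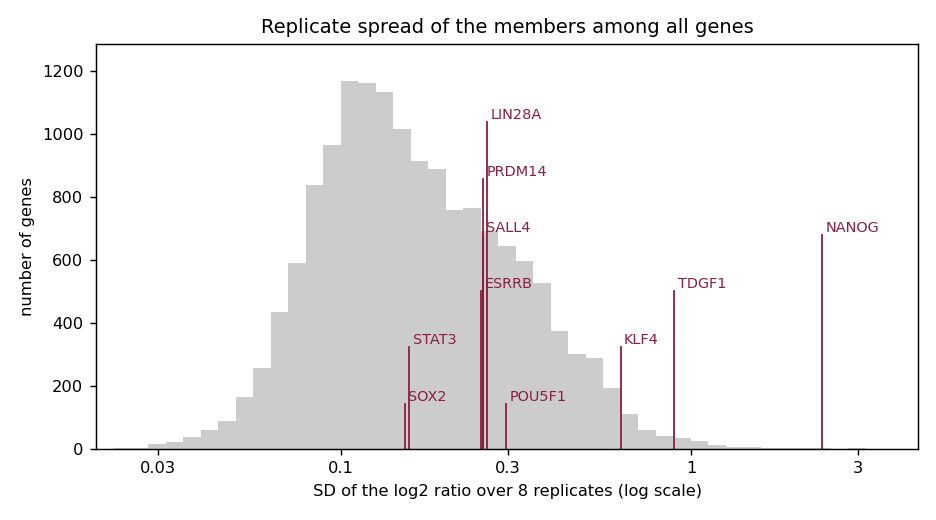
Grey bars count the 15216 genes by the SD of their log2 ratio over the 8 replicates (horizontal axis, log scale). Red lines mark the 10 members, with heights staggered only for legibility. NANOG (2.36) lies at the far right, TDGF1 (0.897) and KLF4 (0.629) in the right tail, and the other 7 members between 0.152 and 0.297.

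No member passed the test of either diet against CAN, or of FLX against SUN. In limma with Benjamini-Hochberg adjustment over all genes, 0 of 10 members had an adjusted p under 0.05 in FLX vs CAN, where the share over all genes was 0%. The same counts were 0 of 10 in SUN vs CAN (0% of all genes) and 0 of 10 in FLX vs SUN (0% of all genes). At an unadjusted p under 0.05 there were 0 of 10 members in FLX vs CAN (3.15% of all genes), 0 of 10 in SUN vs CAN (6.18%) and 0 of 10 in FLX vs SUN (2.09%). These FLX vs SUN counts come from the fit without pairing. In the fit that pairs replicate numbers, given below, 2 of 10 members (NANOG and TDGF1) and 853 of 15216 genes were under 0.05 unadjusted. The lowest adjusted p of a member was 1.00 in FLX vs CAN, 0.812 in SUN vs CAN and 1.00 in FLX vs SUN. In each diet against CAN, 5 members were positive and 5 negative. The median over members was 0.0076 in FLX and −0.016 in SUN, beside 0.0011 and 0.0025 over all genes.

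NANOG averaged 0.29 ± 2.30 in FLX (SD, n = 4), with a 95% interval of the mean from −2.07 to 2.64 and a limma adjusted p of 1.00. In SUN it averaged 1.72 ± 2.52 (SD, n = 4), with an interval from −0.63 to 4.08 and a limma adjusted p of 0.814. The FLX interval held changes of several fold in either direction, and the SUN interval held several-fold higher but not several-fold lower levels. Both intervals also held 0, so neither equality nor changes of these sizes were excluded at this spread. The exact sign-flip test over 4 replicates, two-sided, gave p = 0.875 in FLX and p = 0.25 in SUN, and cannot give less than 0.125. Leaving out SUN replicate 2 lowered the SUN mean to 0.52, and leaving out SUN replicate 3 moved it to 2.40. The FLX mean was −0.49 without replicate 2 and 1.11 without replicate 1. By slide, with 2 replicates each, NANOG averaged 0.22 and 0.36 on the FLX slides and 2.84 and 0.60 on the SUN slides.

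POU5F1 and SOX2, the partners of NANOG, stayed close to their CAN pools. POU5F1 was at −0.15, −0.35, 0.26 and 0.32 in FLX replicates 1 to 4, and at −0.02, −0.32, 0.45 and −0.03 in SUN replicates 1 to 4. Its replicate 2 was the lowest value of either diet, the pools in which NANOG was highest, although FLX replicate 4 had both genes positive. These pools of replicate 2 are assumed to share their CAN pool. The POU5F1 mean was 0.02 ± 0.32 in FLX and 0.02 ± 0.32 in SUN (SD, n = 4 each). In SUN it turned with the dye, at 0.32 over arrays with the diet in Cy5 and −0.28 over those with it in Cy3. In SUN replicate 2 alone, POU5F1 read 0.19 with the diet in Cy5 and −0.84 with it in Cy3, so the sign of that low value rested on the dye. The SD of POU5F1 over the 8 replicates, 0.297, was little above that judged from the dye exchange, 0.255.

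SOX2, the HMG-box factor, varied least of all members. Its log2 ratio was −0.12, 0.01, −0.05 and −0.10 in FLX, a mean of −0.06 ± 0.06 (SD, n = 4). In SUN it was −0.24, −0.31, −0.17 and 0.18, a mean of −0.13 ± 0.22 (SD, n = 4). In each diet 3 of 4 replicates were below 0. The array with the diet in Cy5 gave the lower ratio in 7 of 8 replicates, and both orientations had the same sign in 4 of 8. The SUN mean was −0.28 over arrays with the diet in Cy5 and 0.01 over those with it in Cy3. The SD of SOX2 over the 8 replicates, 0.152, was slightly below that judged from the dye exchange, 0.154. SOX2 had the lowest adjusted p of the members in SUN vs CAN, 0.812 in limma, and the 95% interval of its mean ran from −0.24 to 0.11 in FLX and from −0.31 to 0.04 in SUN.

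**Figure D3:**
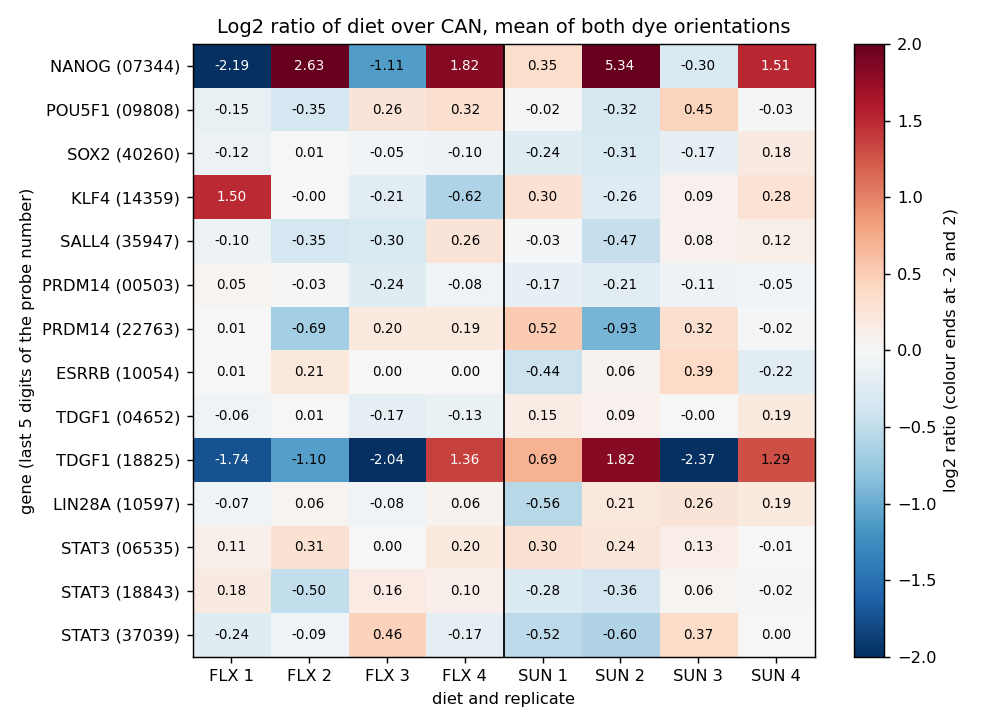
Log2 ratio of diet over CAN, mean of both dye orientations, for the 14 member probes (rows) in 4 FLX and 4 SUN replicates (columns), with the value printed in each cell and the colour scale ending at −2 and 2. NANOG and TDGF1 probe EMBV3_18825 fill the scale, KLF4 reaches 1.50 in FLX replicate 1, and the other rows stay pale.

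KLF4 stood out in a single pool. It was at 1.50 in FLX replicate 1, and at −0.0034, −0.21 and −0.62 in FLX replicates 2 to 4. In that pool both orientations were high, 1.38 and 1.62, while NANOG had its lowest value there. In SUN replicates KLF4 was at 0.30, −0.26, 0.09 and 0.28. Its mean was 0.17 ± 0.92 in FLX, turning to −0.28 without FLX replicate 1, and 0.10 ± 0.26 in SUN (SD, n = 4 each).

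SALL4, PRDM14 and ESRRB are transcription regulators tied to the core network, the first and second zinc finger proteins and the third an orphan nuclear receptor. SALL4 was at −0.10, −0.35, −0.30 and 0.26 in FLX and at −0.03, −0.47, 0.08 and 0.12 in SUN. In both diets its lowest value, like that of POU5F1, came from replicate 2. ESRRB, prominent in mouse naive cells, was at 0.0076, 0.21, 0.0028 and 0.0007 in FLX and at −0.44, 0.06, 0.39 and −0.22 in SUN. All 4 FLX values of ESRRB were positive, but 3 of them were at most 0.0076, and this was the only member with 1 sign in 4 of 4 FLX replicates (10.5% of all genes had 1 sign). In SUN vs CAN 0 of 10 members had 1 sign in 4 of 4 replicates, against 13.4% of all genes.

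The 2 probes of PRDM14 parted. Probe EMBV3_22763 was at 0.01, −0.69, 0.20 and 0.19 in FLX and at 0.52, −0.93, 0.32 and −0.02 in SUN, so that replicate 2 was again the lowest of each diet. Both orientations were negative in these pools, at −0.62 and −0.76 in FLX and −0.76 and −1.10 in SUN. Probe EMBV3_00503 stayed between −0.24 and 0.05 and was negative in 4 of 4 SUN replicates, at −0.17, −0.21, −0.11 and −0.05. Its SUN mean of −0.13 ± 0.07 (SD, n = 4) had an unadjusted limma p of 0.0463 and an adjusted p of 0.774 over all probes, and its orientations correlated at −0.43 over the 8 replicates. The gene mean of PRDM14 was −0.07 ± 0.19 in FLX and −0.08 ± 0.34 in SUN (SD, n = 4 each).

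TDGF1 was the member with a spread most like that of NANOG, on 1 of its 2 probes. Probe EMBV3_18825 was at −1.74, −1.10, −2.04 and 1.36 in FLX replicates 1 to 4. In SUN replicates 1 to 4 it was at 0.69, 1.82, −2.37 and 1.29. Its SD of 1.72 ranked 20 of 43794 probes and was 5.61 times that of the dye exchange. The other probe, EMBV3_04652, stayed between −0.17 and 0.19 with an SD of 0.130, below the median of all probes (0.147). A gene mean of TDGF1 is therefore a mean of a widely varying and a nearly flat probe, at −0.48 ± 0.77 in FLX and 0.23 ± 0.97 in SUN (SD, n = 4 each). Without SUN replicate 3 the SUN mean was 0.71, and without SUN replicate 2 it was −0.0075. Which transcript each probe reads is not given in the sources used here.

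LIN28A, an RNA-binding protein that blocks maturation of let-7 miRNAs, followed the dye more than the pool. Its replicate means were −0.07, 0.06, −0.08 and 0.06 in FLX and −0.56, 0.21, 0.26 and 0.19 in SUN. The array with the diet in Cy5 gave the higher ratio in 7 of 8 replicates, and the sign was the same in both orientations in only 2 of 8. Its SD over replicates, 0.262, was below that judged from the dye exchange, 0.298.

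STAT3, the transcription factor activated by LIF through gp130 and JAK kinases, was read by 3 probes that differed. Probe EMBV3_06535 was at 0.11, 0.31, 0.0013 and 0.20 in FLX and at 0.30, 0.24, 0.13 and −0.01 in SUN. It was higher with the diet in Cy5 in 8 of 8 replicates and had 1 sign in both orientations in 1 of 8, with SUN means of 0.47 in Cy5 and −0.14 in Cy3. Its unadjusted limma p in SUN vs CAN was 0.0409, adjusted 0.774. With PRDM14 probe EMBV3_00503 this made 2 of 14 member probes at an unadjusted p under 0.05 in SUN vs CAN (6.46% of all probes), against 0 of 14 in FLX vs CAN (2.91%). Probes EMBV3_18843 and EMBV3_37039 were at −0.50 and −0.09 in FLX replicate 2 and at −0.36 and −0.60 in SUN replicate 2, opposite in sign to EMBV3_06535 in both pools. The gene mean of STAT3 was 0.04 ± 0.12 in FLX and −0.06 ± 0.19 in SUN (SD, n = 4 each). After adjustment over all probes, 0 of 14 member probes passed in FLX vs CAN (0% of all probes), 0 of 14 in SUN vs CAN (0%) and 0 of 14 in FLX vs SUN (0%).

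FLX and SUN were next set against each other within replicate numbers, where the CAN pool is assumed to be shared and drops out. NANOG was lower in FLX than in SUN in replicates 1 to 3, with differences of −2.54, −2.71 and −0.81 on the log2 scale, and higher in replicate 4, at 0.32. The mean difference was −1.44 ± 1.45 (SD, n = 4), where the SD is over the pairs. The fit without pairing gave a 95% interval from −4.77 to 1.89 and a limma adjusted p of 1.00. TDGF1 probe EMBV3_18825 differed by −2.43, −2.92, 0.33 and 0.07, so that the first and second pairs had large differences of the same sign as NANOG. TDGF1 probe EMBV3_04652 was lower in FLX in 4 of 4 pairs, at −0.22, −0.08, −0.17 and −0.32, with an unadjusted limma p of 0.0262 and an adjusted p of 1.00, the only one of 14 member probes under 0.05 before adjustment (2.17% of all probes).

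With replicate number as a fixed block, which keeps the pairs, the FLX minus SUN difference of NANOG had a 95% interval from −2.64 to −0.24, an unadjusted limma p of 0.0259 and an adjusted p of 0.840. The same fit gave TDGF1, by gene mean, a difference of −0.72 with an unadjusted p of 0.0422 and an adjusted p of 0.840. In this fit 853 of 15216 genes, NANOG and TDGF1 among them, had an unadjusted p under 0.05, against 318 in the fit without pairing. After adjustment 0 genes passed, and the 95% interval of NANOG is not adjusted for the number of genes. The other 8 members ranged from −0.05 for SALL4 to 0.11 for ESRRB. STAT3, at 0.18, 0.15, 0.02 and 0.05, was the only member whose 4 paired differences had 1 sign (13.5% of all genes had 1 sign). The FLX arrays were on slides 1 and 2 and the SUN arrays on the other slides, and in this comparison the diets and the slides cannot be told apart.

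The other factors did not follow NANOG from pool to pool as a group. Pearson correlations with NANOG over the 8 replicates, of which same-numbered pairs are assumed to share a CAN pool, were positive for 3 of the 9 other members and negative for 6, with a median of −0.34. Over all genes the median was −0.013, 49.0% were positive, and 90% of genes lay between −0.74 and 0.74. TDGF1, by the mean of its probes, was the most alike at 0.72 (Spearman 0.74), with the sign of NANOG in 7 of 8 replicates. Its variable probe EMBV3_18825 was at 0.72 and its nearly flat probe EMBV3_04652 at 0.41. LIN28A stood at 0.37 and ESRRB at 0.06. SOX2 was at −0.17, SALL4 at −0.34, POU5F1 at −0.48 and KLF4 at −0.59. STAT3 was at −0.69 (Spearman −0.64) and PRDM14 at −0.79 (Spearman −0.55), both by the mean of their probes. The probes of these genes differed, at 0.47, −0.72 and −0.52 for STAT3 probes EMBV3_06535, EMBV3_18843 and EMBV3_37039, and at −0.27 and −0.75 for PRDM14 probes EMBV3_00503 and EMBV3_22763. For LIN28A, SOX2 and POU5F1 the SD over replicates was only 0.879, 0.984 and 1.16 times that judged from the dye exchange. Their r with NANOG therefore says little either way. For the remaining members other than NANOG this ratio ran from 1.48 (STAT3) to 5.12 (TDGF1) by gene mean. All genes with r above that of TDGF1 made up 6.03% of the array, and those below PRDM14 2.90%, so these r values were not rare among 15216 genes.

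Several of these values rested on a few pools. Without FLX replicate 1 and SUN replicate 2, whose NANOG values lay farthest from the median, TDGF1 had r = 0.55, PRDM14 −0.59, STAT3 −0.63 and POU5F1 −0.64, while KLF4 was reduced to −0.11. In the same 6 replicates SOX2 turned to 0.42, SALL4 to 0.13 and ESRRB to −0.01. In SUN replicate 2, where NANOG was at 5.34, the largest departure among the members other than TDGF1 was −0.57, for PRDM14. In that pool 6 of the 9 others were below 0.

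**Figure D4:**
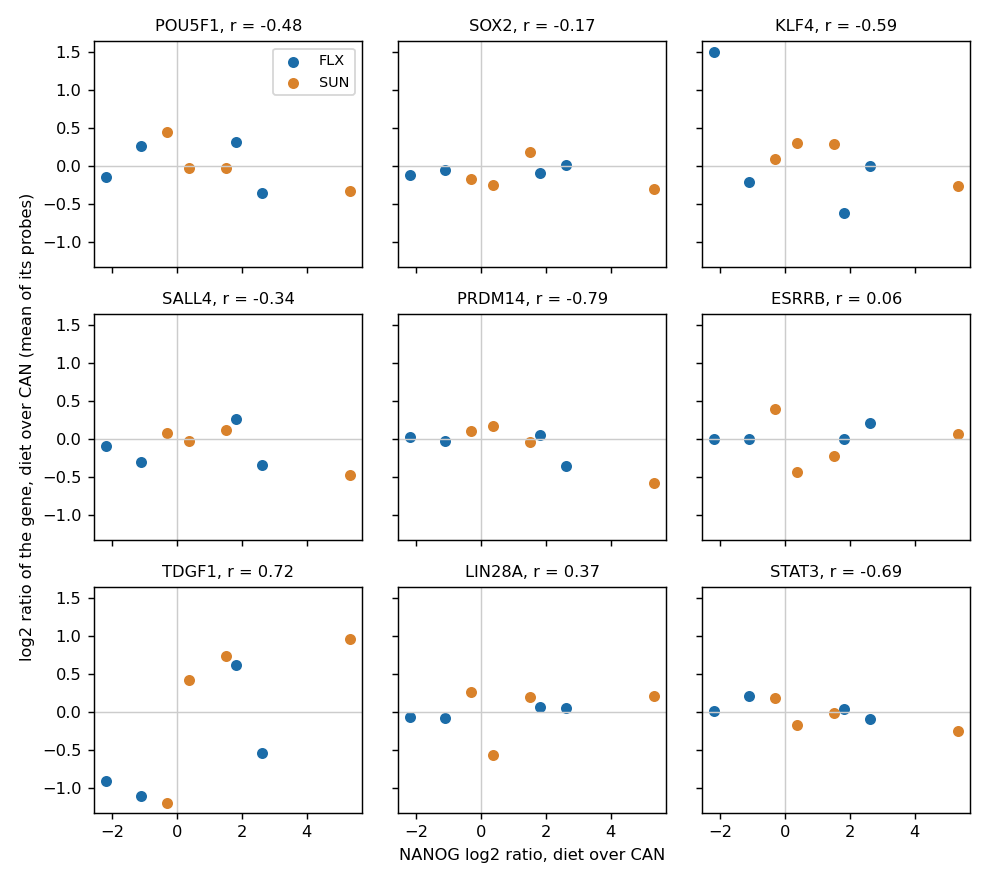
Log2 ratio of each of the 9 other members (vertical axis, mean of its probes) against that of NANOG (horizontal axis) in 4 FLX replicates (blue) and 4 SUN replicates (orange), all diet over CAN, with Pearson r above each panel. TDGF1 (r = 0.72) covers a range near that of KLF4, and the other 7 members stay between −0.57 and 0.45.

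Likeness to NANOG was also sought among the 24 genes with an SD of at least 1.18, so genes of smaller spread were left out of this search. The 5 most alike over 8 replicates were KRT19 (r = 0.93), NID1 (0.86), SCIN (0.86), TPI1 (0.81) and LOC100139916 (0.80). KRT19, a keratin of simple epithelia that is abundant in trophectoderm, was at −2.16, 0.35, −1.07 and 0.80 in FLX and at −0.73, 3.95, −2.46 and 1.05 in SUN. NID1, the basement membrane protein nidogen, was at −1.56, 0.69, −0.47 and 2.59 in FLX and at 0.60, 2.96, −1.22 and 1.71 in SUN. Both were highest in SUN replicate 2 and negative in FLX replicates 1 and 3. Without SUN replicate 2 the correlations were 0.83 for KRT19, 0.81 for NID1, 0.68 for SCIN, the actin-severing protein scinderin, 0.53 for TPI1, a glycolytic isomerase, and 0.69 for LOC100139916.

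Markers of other cells moved beside NANOG in some pools. For comparison, 49.0% of all genes correlated positively with NANOG over the 8 replicates. Of 16 measured trophectoderm markers of 17 listed, 13 correlated positively with NANOG, with a median r of 0.49 (11 and 0.28 without SUN replicate 2), and the median marker was at −0.06, −0.07, −0.23 and 0.14 in FLX and at 0.09, 0.58, −0.30 and 0.17 in SUN. SUN replicate 2 was thus the highest pool for the list as for NANOG, while FLX replicate 2, with NANOG at 2.63, was slightly below 0. TFAP2A, an early trophoblast factor, was at −0.26, 0.33, −0.20 and 0.29 in FLX and at 0.32, 1.45, −0.57 and 0.65 in SUN (r = 0.88, or 0.73 without SUN replicate 2). PAG2, a placental glycoprotein, had r = 0.23, which turned to −0.42 without that replicate, and HAND1 had r = −0.68, or −0.13 without it. Of 12 cumulus and granulosa markers, 9 correlated positively, with a median r of 0.44 (9 and 0.27 without SUN replicate 2) and a median marker of −0.02, 0.03, −0.20 and −0.05 in FLX and 0.06, 0.30, −0.17 and 0.12 in SUN. HSD3B1, a steroid-forming enzyme of the follicle, was at 1.14, 0.05, −1.74 and −0.75 in FLX and at 1.70, 2.61, −1.04 and 1.15 in SUN. It had r = 0.47, or 0.05 without SUN replicate 2. TNFAIP6 was the closest of this list at r = 0.93 (0.86 without SUN replicate 2), and FOXL2 was at 0.79 (0.68 without it). HAS2, PTX3 and INHA, the only genes of the list with negative r, were at −0.59, −0.58 and −0.56 (−0.46, −0.61 and −0.52 without that replicate).

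Hypoblast markers were split, with 7 of 14 measured (16 listed) positive and a median r of 0.05 (7 and −0.02 without SUN replicate 2). Their list medians ran from −0.12 to 0.10. HNF4A, a nuclear receptor of the hypoblast lineage, was the closest of them at r = 0.97 (0.93 without SUN replicate 2). It was at −0.35, 0.84, −0.11 and 0.23 in FLX and at 0.08, 1.17, 0.0082 and 0.33 in SUN. SOX17 lay farthest the other way at r = −0.89 (−0.74 without SUN replicate 2). SOX7 had r = −0.41, which turned to 0.10 without that replicate. Oocyte markers (12 of 12 measured) had a median r of −0.29 (−0.06 without SUN replicate 2). Blood markers (12 of 12) had a median r of −0.14 (−0.21 without SUN replicate 2). Both lists had medians within −0.05 to 0.11 in every pool. Uterine epithelial markers (11 of 13) had a median r of 0.40 (0.33 without SUN replicate 2) and list medians from −0.06 to 0.05. Yet LTF, the secreted lactoferrin, was at −2.21 in FLX replicate 3 and −2.68 in SUN replicate 3 against at most 0.26 in size elsewhere. In the same pools BPIFB1 was at −1.93 and −2.38, against at most 0.37 in size elsewhere. MUC1 was at −0.80 and −1.01 there, while SPP1 was at 0.04 and 0.09. The part of these markers in the NANOG values was not tested, and none of the lists held a gene that passed in either comparison with CAN.

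**Figure D5:**
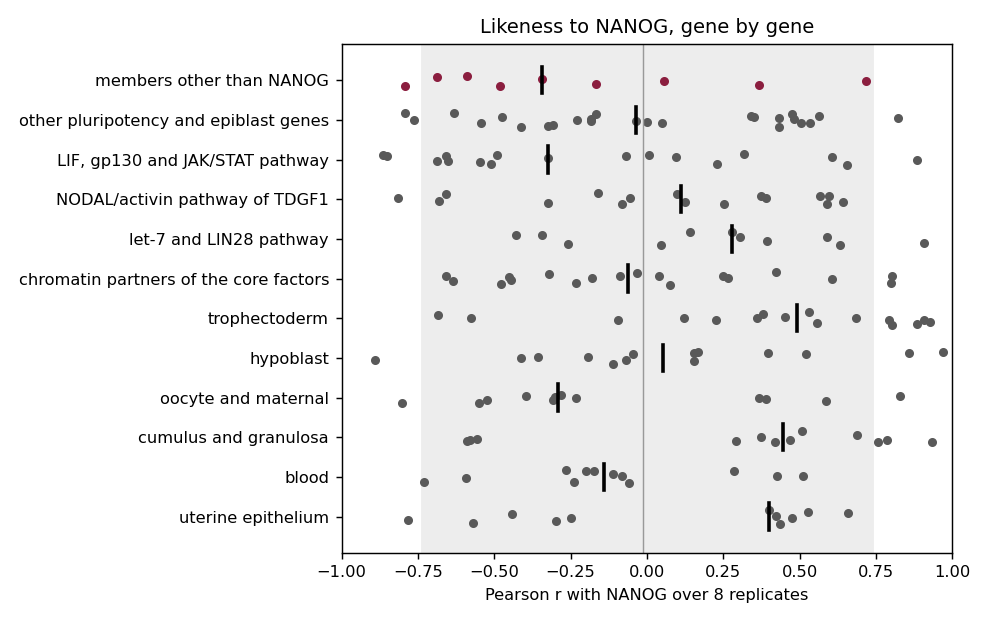
Pearson r with NANOG over 8 replicates (horizontal axis) for the 9 other members (red) and for each gene of 5 pathway and 6 marker lists (grey, 1 point per gene, jittered vertically), with a black bar at each median. The grey band holds 90% of all genes, from −0.74 to 0.74. The members centre at −0.34 and the trophectoderm markers at 0.49.

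The wider pathways of the members gave no called gene. Of 32 other pluripotency and epiblast genes 25 were measured, and 0 passed in FLX vs CAN or SUN vs CAN, with 13 positive and 12 negative in FLX, a median of 0.02, and 12 positive and 13 negative in SUN, a median of −0.03. MYC, a growth-promoting factor, was at −0.43 ± 0.38 in FLX and −0.04 ± 0.61 in SUN, and SOX15, a SOX2 relative, at −0.02 ± 0.03 in FLX and −0.12 ± 0.12 in SUN (SD, n = 4 each). SALL1, a relative of SALL4, averaged −0.02 in FLX and −0.11 in SUN. ETV5, an FGF-responsive factor, averaged −0.0023 in FLX and 0.08 in SUN.

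In the LIF, gp130 and JAK/STAT pathway upstream of STAT3, 17 of 18 genes were measured and 0 passed, with 12 positive in FLX and 7 in SUN. The cytokine receptor IL6R was at 0.15, 0.27, −0.03 and −0.12 in FLX and at −0.04, −0.08, −0.30 and −0.63 in SUN, negative in 4 of 4 SUN replicates. The kinase TYK2 averaged −0.02 ± 0.31 in FLX and 0.36 ± 0.34 in SUN, and JAK2 0.22 ± 0.27 in FLX and 0.09 ± 0.18 in SUN (SD, n = 4 each). SOCS3, the feedback inhibitor that STAT3 induces, was at 0.03 ± 0.14 in FLX and 0.14 ± 0.10 in SUN (SD, n = 4 each) and positive in 4 of 4 SUN replicates. IL6R and SOCS3 were named for a small unadjusted p, and 13.4% of all genes had 1 sign in 4 of 4 SUN replicates. The lowest adjusted p of the list was 1.00 in FLX and 0.799 in SUN.

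In the NODAL/activin pathway, for which TDGF1 is a co-receptor, 16 of 17 genes were measured and 0 passed, with 4 positive and 12 negative in FLX and 8 of each sign in SUN. ACVR2B, a type II receptor, was negative in all 8 replicates, at −0.17, −0.40, −0.24 and −0.13 in FLX and at −0.43, −0.17, −0.06 and −0.10 in SUN, with limma adjusted p-values of 1.00 and 0.799. It was named for its small unadjusted p, which favours genes of 1 sign, and same-numbered replicates are assumed to share a CAN pool. ACVR1B, a type I receptor, was at −1.16, −0.67, −0.92 and 0.48 in FLX and at −0.05, 0.10, −0.78 and 0.34 in SUN. Like the variable TDGF1 probe, it was negative in FLX replicates 1 to 3 and SUN replicate 3 and positive in FLX replicate 4. The ligand NODAL averaged −0.02 in FLX and −0.14 in SUN, and the signal transducer SMAD2 averaged 0.09 in FLX and 0.13 in SUN.

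Around LIN28A, 11 of 13 let-7 pathway genes were measured and 0 passed, with 3 positive in FLX and 6 in SUN. IGF2BP1, an mRNA-binding protein repressed by let-7, was at 0.11, −0.10, −0.26 and 0.24 in FLX and at 0.59, 0.42, 0.0033 and 0.30 in SUN. The uridylyl transferases TUT4 and TUT7, which tail let-7 precursors held by LIN28A, averaged 0.24 ± 0.20 and −0.23 ± 0.21 in FLX and −0.01 ± 0.38 and −0.03 ± 0.34 in SUN (SD, n = 4 each). Of the chromatin partners 18 of 19 were measured and 0 passed, with medians of 0.05 in FLX and 0.06 in SUN. HDAC1, a histone deacetylase, was at −0.13, 0.37, 0.07 and 0.64 in FLX and at 0.17, 0.45, 0.15 and 0.29 in SUN, and had r = 0.80 with NANOG (0.88 without SUN replicate 2). EZH2, the Polycomb methyltransferase, averaged 0.12 in FLX and 0.17 in SUN, and KDM1A, a histone demethylase, 0.08 in FLX and 0.14 in SUN.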

How the data were processed

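For every probe the authors deposited 1 normalised log ratio per array, taken here as log2; their scaling, centring and log base are not given in the sources used here. Per the labels, embryo pools were hybridised in Cy3 and Cy5 with a dye exchange for each replicate. Ratios were turned so that the diet stood over CAN and averaged over each dye exchange (n = 4 per diet), and a gene was the mean of its probes. Of 43794 probes, 21790 carried 1 symbol, 0 several and 22004 none, and symbols of 1524 probes were updated through the RefSeq table, used for names alone. One limma fit (lmFit, eBayes) over 8 replicates gave all comparisons, with Benjamini-Hochberg adjustment to 0.05 over 15216 genes or 43794 probes, with limma 3.58.1 and statmod 1.5.0 under R 4.3.3; Python 3.11.15, numpy 2.4.6, pandas 2.3.3 and matplotlib 3.10.9 did the rest. The fit was tested on simulated data. The number of arrays limits the precision: the median standard error of a gene's mean was 0.0752 against CAN and 0.106 in FLX vs SUN. FLX and SUN deviations of the same number correlated at 0.421, 0.576, 0.537 and 0.410 over all probes, so numbers were taken to pair the samples. Members and lists were chosen with earlier results of these data known. From each list up to 4 genes of smallest unadjusted p in either comparison with CAN were picked for naming. Only some of the picked genes are described here. Also named were the 5 genes most like NANOG among those with an SD of 50% of its own or more. SOX17, TNFAIP6, HAS2, PTX3, BPIFB1, MUC1 and SPP1 were named besides, after seeing their values. Alternatives were leaving out each replicate, either dye orientation alone, scale and quantile normalisation, the median of probes, replicate number or slide as a block, each slide alone, a fit per diet, and the exact sign-flip test.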

Additional observations from a re-analysis of the deposited data

Results flagged for a closer look

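Of 132 groups of 4 replicates, 12 had 1 replicate far from the other 3 by Dixon's criterion at 95%, which chance alone gives in about 1 in 20 groups. Among the members, FLX replicate 2 of ESRRB was high at 0.21 against 0.0007 to 0.0076 in the other FLX replicates. SUN replicate 1 of LIN28A was low at −0.56 against 0.19 to 0.26. FLX replicate 2 of STAT3 probe EMBV3_18843 was low at −0.50 against 0.10 to 0.18.

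Among the pathway genes, SOCS3 was high in SUN replicate 3 at 0.30 and KDM1A in SUN replicate 1 at 0.23. Among the markers, PAG2 was high in FLX replicate 1 at 0.97, where the other FLX replicates lay between −0.84 and −0.75. LTF was low in FLX replicate 3 at −2.21, ZP4 in FLX replicate 3 at −0.40 and NLRP5 in FLX replicate 2 at −0.27. In SUN replicate 2, LYZ was low at −0.061 and HBB high at 0.13. SCIN, one of the 5 genes most like NANOG, was high in FLX replicate 2 at 1.40. NANOG was not among these 12. Its SUN replicate 2, at 5.34 against −0.30 to 1.51 in the other SUN replicates, did not reach the criterion.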

How the results depend on the processing

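No member passed the adjusted threshold under any alternative run (the lowest adjusted p was 0.232, for SOX2 in SUN vs CAN over arrays with the diet in Cy5 alone). Of 30 member means, 22 changed sign under at least 1 alternative and 8 did not. The median over members in FLX vs CAN, 0.0076, ran from −0.0665 to −0.0118 with 1 FLX replicate left out, and was lowest without FLX replicate 4; the cause was not tested. With replicate number as a fixed block, genes at an unadjusted p under 0.05 in FLX vs SUN numbered 853 against 318, NANOG had an adjusted p of 0.840, and no call changed; the random block (correlation 0.354) gave 789. Over arrays of 1 orientation (Cy5, Cy3) such genes numbered 1901 and 1027 in FLX vs CAN against 480, 2093 and 1973 in SUN vs CAN against 941, and 688 and 627 in FLX vs SUN. Scaling of arrays gave 730 in FLX vs CAN and 625 in SUN vs CAN. They were 788 without FLX replicate 4 in FLX vs CAN, 1707 without SUN replicate 3 and 588 without SUN replicate 2 in SUN vs CAN, and 794 without SUN replicate 3 in FLX vs SUN. Adjusted calls were 0 in all of these settings.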
